A study of Homo sapiens with 6 samples.

Results

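The 10 genes described here encode enzymes and receptors of the prostaglandin and leukotriene pathway: PLA2G4A, PTGS1, PTGS2, PTGES, PTGES2, PTGES3, PTGER2, PTGER4, ALOX5 and HPGD. They were chosen by gene symbol among the 60612 genes of the deposited expression table, and all 10 symbols were found once each. The rule itself uses no measured value, but earlier results of these data were known when the genes were chosen. The libraries came from U251, an established human glioma cell line of astrocytic origin labelled wild type, grown in DMEM with fetal bovine serum. In 3 libraries the cells had received 6-shogaol, a pungent unsaturated ketone of dried ginger, for 24 h at a labelled dose of 60 (the unit is written "μm" and read here as micromolar). The 3 control libraries are labelled as without the compound at the same time point, and the labels name no vehicle. Whether the libraries of a group came from different cultures is not stated. The p-values then reflect only how far these libraries vary, and that variation may be technical.

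Eicosanoids are made from arachidonic acid, which cytosolic phospholipase A2 (PLA2G4A) cuts from membrane phospholipids. The cyclooxygenases PTGS1, usually constitutive, and PTGS2, usually inducible, turn it into prostaglandin H2, and prostaglandin E synthases (PTGES, PTGES2, PTGES3) turn that into prostaglandin E2. Prostaglandin E2 acts on receptors that include EP2 (PTGER2) and EP4 (PTGER4), both coupled to cyclic AMP, and is inactivated by 15-hydroxyprostaglandin dehydrogenase (HPGD). In a separate branch 5-lipoxygenase (ALOX5), an enzyme best known from leukocytes, starts the synthesis of leukotrienes. PTGS2 and prostaglandin E2 are well-studied features of many gliomas, and constituents of ginger have long been studied as inhibitors of this pathway.

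The promoters of PTGS2, PTGS1 and PTGES are shown because PTGS2 and PTGES had the largest positive fold changes of the 10 genes and PTGS1 is the cyclooxygenase that PTGS2 is usually set against. Each is the 250 bases before a RefSeq transcript start in GRCh38.p14, from 5′ to 3′ on the strand of the gene. Both strands were searched for 3 motifs, and capitals mark the matches. The first motif is the TATA box, searched as TATAAA. The core of the cyclic AMP response element was searched as CGTCA. A form of the site read by C/EBP factors was searched as TTNCGNAA. PTGS1 has 2 starts in RefSeq, and the first is printed. PTGS2 lies at chr1:186680424-186680673 (minus strand), PTGS1 at chr9:122370283-122370532 (plus strand) and PTGES at chr9:129753043-129753292 (minus strand).
PTGS2: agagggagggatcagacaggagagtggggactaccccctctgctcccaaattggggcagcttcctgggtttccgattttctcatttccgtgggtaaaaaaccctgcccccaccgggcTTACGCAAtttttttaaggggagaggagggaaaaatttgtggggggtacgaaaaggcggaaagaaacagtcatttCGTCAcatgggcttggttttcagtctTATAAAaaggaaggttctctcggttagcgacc
PTGS1, first start: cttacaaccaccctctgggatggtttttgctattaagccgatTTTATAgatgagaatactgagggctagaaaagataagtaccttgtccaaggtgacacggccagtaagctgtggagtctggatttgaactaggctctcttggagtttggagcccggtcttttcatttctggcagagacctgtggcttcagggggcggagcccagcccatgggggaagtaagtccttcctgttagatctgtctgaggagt
PTGES: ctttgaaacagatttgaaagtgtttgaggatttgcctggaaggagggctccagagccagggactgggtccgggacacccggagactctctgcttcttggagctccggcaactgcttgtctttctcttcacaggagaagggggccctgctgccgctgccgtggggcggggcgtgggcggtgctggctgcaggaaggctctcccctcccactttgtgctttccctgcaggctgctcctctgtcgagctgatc
In PTGS2 the C/EBP match ended 126 bases, the cyclic AMP element match 54 bases and the TATA box match 27 bases before the start. These 3 matches did not overlap. The promoter of the first PTGS1 start held a TATA box match on the opposite strand, 208 to 203 bases before the start. The promoter of the second PTGS1 start (transcript start 122375302, not printed) held no match, and the PTGES promoter held no match to the 3 motifs. Among 35116 promoters of this length 10.7% held the TATA box, 21.2% the cyclic AMP element core and 2.18% the C/EBP form. G and C made up 50.4% of the PTGS2 window, 49.6% of the first PTGS1 window, 65.2% of the second and 61.2% of the PTGES window, against a median of 58.0%. RefSeq promoters were matched for 9 of the 10 genes. The cyclic AMP element core was also found before a start of HPGD, of PTGES3 and of PTGER2 (not printed). A match describes letters, not binding, and the libraries measured RNA only.

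No gene of the 10 passed the test for a change with 6-shogaol. ALOX5 and PTGER2 had 0 counts in every library, and the other 8 were all tested. Of these 8, edgeR's quasi-likelihood test called 0 (Benjamini-Hochberg adjusted p under 0.05 over all 19279 genes tested), where 3.38% of all genes tested were called. Before adjustment 1 of 8, PTGS2, had p under 0.05, against 20.4% of all genes. DESeq2 called 1, PTGS2, and gave no adjusted p for 3 of the 8 (PTGS1, PTGES and HPGD). Of the 15217 genes to which it gave an adjusted p, DESeq2 called 10.3%. Limma with an FPKM filter held 4 of the genes, without PTGS2, and called 0. Limma with no filter held all 10, PTGS2 included, and called 0. The control and 6-shogaol libraries did not overlap in 3 of the 8 genes (PTGS2, PTGES and PTGES2), all with the treated libraries above. Over all genes tested 14.0% separated in that direction and 13.9% in the other. The median log2 fold change of the 8 was 0.29, with 7 of 8 values positive, beside 0.00 and 50.0% over all genes tested. With 8 genes these shares are coarse, and PTGS2 alone makes up the count at the unadjusted threshold.

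**Figure D1:**
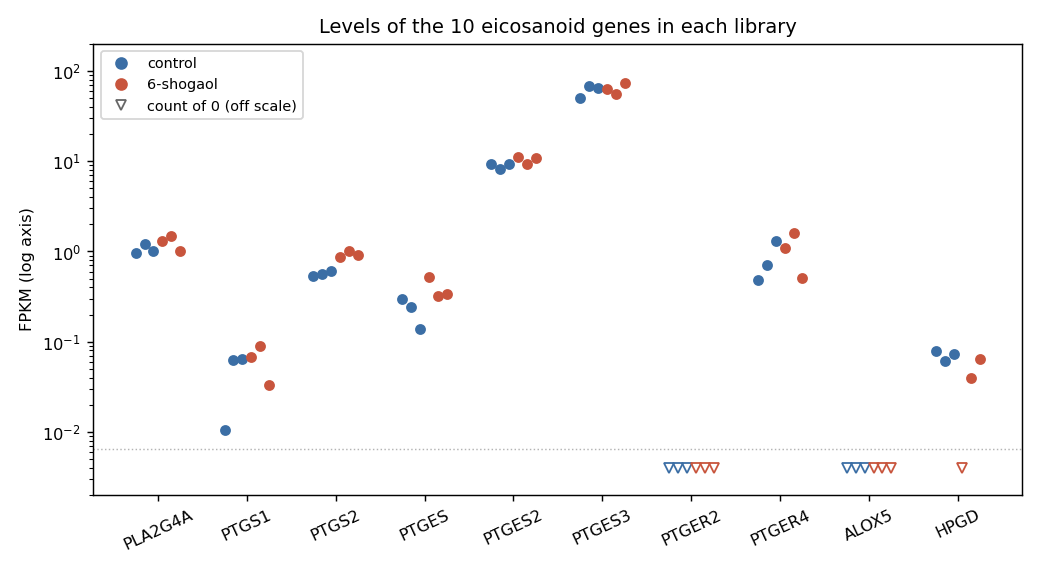
FPKM of the 10 genes in each library on a log axis, controls in blue and 6-shogaol in red, each dot 1 library, with counts of 0 drawn as open triangles below the dotted line. PTGES3 (50.9 to 74.2 FPKM) and PTGES2 (8.31 to 11.1) stand above the other genes, and PTGER2 and ALOX5 have only counts of 0.

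Totals ran from 43516840 to 60018999 counts per library. For a gene with 0 counts the upper limit, taken as 3 counts, was 0.05 to 0.0689 CPM by library (CPM are counts scaled to library size with TMM factors). This limit covers counting error only. Low values piled up at multiples of 4: over the 6 libraries 8318 gene values were 4, against 3413 at 3 and 1868 at 5, and 4016 were 8, against 2021 at 7 and 1282 at 9. One count therefore need not be 1 independent read, and counting errors of the low genes may be wider than their counts imply. One library, 6-shogaol replicate 1, stood apart along principal component 2 (-61.8, the others from -22.6 to 33.9), and results that rest on it are given without it. Of 8 glial and glioma markers 7 had a mean over the 6 libraries of at least 1 FPKM (VIM, NES, GFAP, CD44, FABP7, SOX2 and SOX9). S100B was below. With 6-shogaol alone GFAP (mean 0.664 FPKM) and FABP7 (0.613) were below 1 as well. Markers of other cell types also reached a mean of 1 FPKM. These were 3 of 5 fibroblast (COL1A1, COL1A2 and PDGFRB), 2 of 5 neuronal (SYT1 and TUBB3) and 2 of 5 epithelial markers (KRT18 and KRT19). Of 8 leukocyte markers 1 did (CD68), and of 5 endothelial markers 0 did. In bulk RNA, fewer cells of a kind and less RNA per cell cannot be told apart.

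Compared per length, on the FPKM scale, the 10 genes covered a wide range of levels. PTGES3 had a median of 64.4 FPKM over the 6 libraries and PTGES2 of 9.4, and neither range overlapped that of the next gene. PLA2G4A (median 1.11 FPKM), PTGER4 (0.899) and PTGS2 (0.742) formed a middle group whose neighbouring ranges overlapped. PTGES (0.31) lay lower, and its highest library (0.523) was below every PTGS2 library but above the lowest PTGER4 library (0.483). PTGS1 (0.0629) and HPGD (0.0625) came last among detected genes and overlapped each other.

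The supply of arachidonic acid was represented by PLA2G4A (ENSG00000116711, chromosome 1, 186828949 to 186988981). Coordinates here are those of the deposited table, whose human build is not given in the sources used here. For PTGS1, PTGES3 and ALOX5 they equal those of GENCODE 29 on GRCh38. None of the 10 genes shared exon bases with an expressed neighbour in GENCODE 29. For PLA2G4A the controls held 3.31, 4.19 and 3.42 CPM and the 6-shogaol libraries 4.37, 5.14 and 3.4. Treated replicates 1 and 2 lay above every control and treated replicate 3 lay within their range. The log2 fold change was 0.24 (SE 0.21, 95% interval -0.24 to 0.73, edgeR adjusted p = 0.572). PLA2G4A, on the plus strand, starts 149 kb from the start of PTGS2, which lies on the minus strand of the same chromosome.

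Among the cyclooxygenases, PTGS2 (ENSG00000073756, chromosome 1, 186671791 to 186680423) came closest to the threshold. Its controls held 177, 206 and 229 counts, or 3.42, 3.52 and 3.82 CPM. The 6-shogaol libraries held 299, 320 and 247 counts, or 5.29, 6.38 and 5.67 CPM. Every treated library stood above every control, and the gap between the groups was wider than the spread within either. The means were 3.59 ± 0.204 and 5.78 ± 0.551 CPM (SD, n = 3), a ratio of 1.61 and a log2 fold change of 0.69 (SE 0.15, 95% interval 0.34 to 1.04). The interval is for 1 gene and excludes 0, but the p adjusted over all genes missed the threshold (edgeR unadjusted p = 0.00234, adjusted p = 0.0572). It passed in DESeq2 (adjusted p = 0.0218) and, barely, in edgeR on counts divided by 4 (adjusted p = 0.0499), a setting chosen after the steps of 4 were seen. Over all alternatives the adjusted p ran from 0.0218 to 0.186 and the fold change stayed positive. Without 6-shogaol replicate 1 the log2 fold change was 0.75 (edgeR adjusted p = 0.056).

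PTGS1 (ENSG00000095303, chromosome 9, 122370530 to 122395703) was barely detected. The controls held 4, 26 and 27 counts and the 6-shogaol libraries 26, 31 and 10. One library of each group was low, control replicate 1 and 6-shogaol replicate 3, and the groups overlapped. The log2 fold change was 0.42 (SE 0.72, 95% interval -1.28 to 2.12, edgeR adjusted p = 0.803), and -0.03 without control replicate 1. On the FPKM scale PTGS2 made up 98.1%, 90.0% and 90.6% of the 2 cyclooxygenase transcripts in the controls and 92.7%, 91.9% and 96.5% with 6-shogaol. The groups overlapped, and the means of 92.9% ± 4.52 and 93.7% ± 2.46 (SD, n = 3) did not differ beyond the spread (exact permutation, two-sided, p = 0.7; 3 against 3 cannot go below 0.1).

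**Figure D2:**
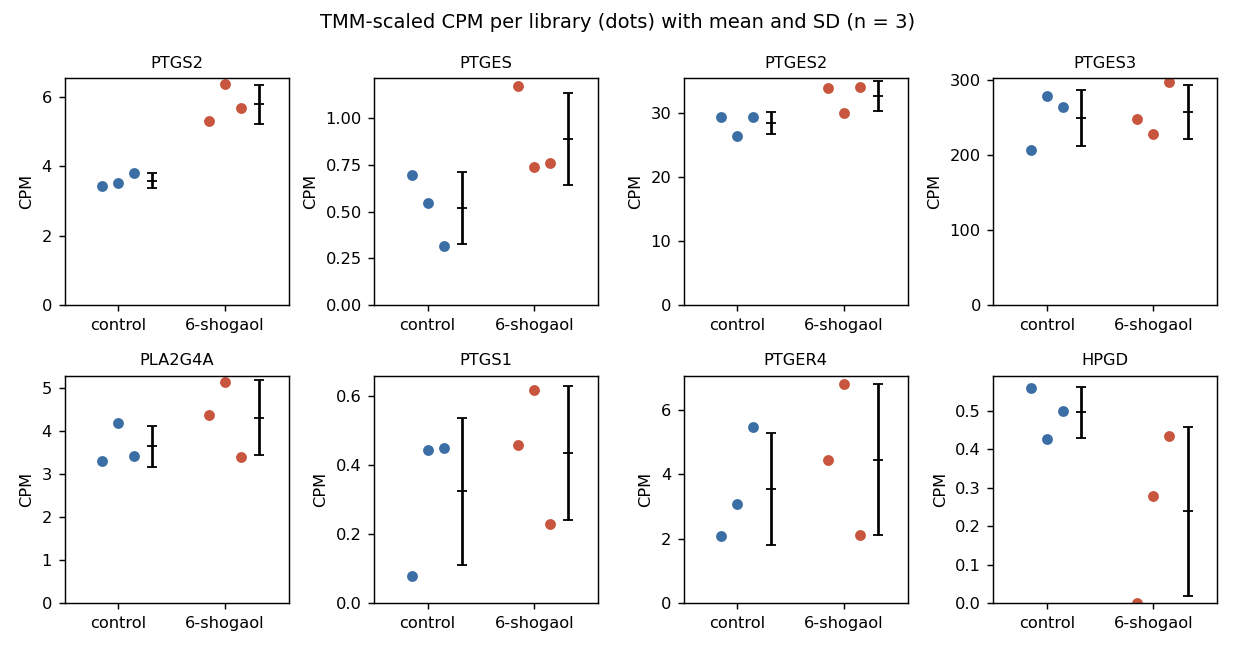
TMM-scaled CPM of the 8 detected genes, 1 dot per library, with the mean and SD of each group (n = 3) beside the dots and each axis starting at 0. The groups are apart in PTGS2, PTGES and PTGES2 and overlap in the other panels. For HPGD, 6-shogaol replicate 1 is at 0.

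The prostaglandin E synthases stood at very different levels. PTGES (ENSG00000148344, chromosome 9, 129738331 to 129753042), the membrane-bound synthase that usually works with PTGS2, had 36, 32 and 19 counts in the controls and 66, 37 and 33 with 6-shogaol. In CPM these were 0.696, 0.547 and 0.317 against 1.17, 0.738 and 0.758. The groups did not overlap, but control replicate 1 and 6-shogaol replicate 2 lay close together and 6-shogaol replicate 1 was far above the rest. The log2 fold change of 0.77 was the largest positive value of the 8 and had a wide error (SE 0.42, 95% interval -0.21 to 1.76, edgeR adjusted p = 0.359). It was 0.53 without 6-shogaol replicate 1.

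PTGES2 (ENSG00000148334, chromosome 9, 128120693 to 128128418), a second membrane-associated synthase, held 29.4, 26.4 and 29.4 CPM in the controls and 33.9, 30.0 and 34.1 with 6-shogaol. The groups did not overlap, by a narrow margin. The log2 fold change was 0.20 (SE 0.09, 95% interval -0.01 to 0.42, edgeR adjusted p = 0.272).

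PTGES3 (ENSG00000110958, chromosome 12, 56663341 to 56688408) encodes p23, a cytosolic synthase that is also a co-chaperone of HSP90. It held 207, 278 and 263 CPM in the controls and 248, 227 and 297 with 6-shogaol. The treated libraries ran from within to just above the control range, and the log2 fold change was 0.05 (SE 0.14, 95% interval -0.28 to 0.37, edgeR adjusted p = 0.897). Its sign changed to -0.07 without control replicate 1 and without 6-shogaol replicate 3. PTGES3 made up 86.8% ± 2.38 of the FPKM of the 3 synthases in controls and 85.5% ± 1.2 with 6-shogaol (SD, n = 3, two-sided exact permutation p = 0.5). PTGES made up 0.331% ± 0.155 and 0.526% ± 0.156 (exact permutation p = 0.3).

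As PTGES3 is also part of the HSP90 machinery, 10 genes of HSP90 and its partners were read from the same fit. edgeR called 0 of 10 after adjustment, and DESeq2 called 2 lower, HSP90AA1 and STIP1, where it called 5.2% of all its genes lower. Before adjustment 4 were lower and 1 was higher with p under 0.05, against 9.95% and 10.4% of all genes tested, and the median log2 fold change was -0.13. HSP90AA1, the inducible HSP90, averaged 1240 CPM in controls and 1030 CPM with 6-shogaol, a log2 difference of -0.26 (SE 0.06, adjusted p = 0.0732 in edgeR). HSP90AB1, the constitutive form, averaged 1320 and 1180 CPM (log2 difference -0.16, SE 0.05, adjusted p = 0.16 in edgeR). Whether these differ from PTGES3 was not tested.

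Of the prostaglandin E2 receptors, PTGER4 (ENSG00000171522, chromosome 5, 40679915 to 40693735) was detected and PTGER2 (ENSG00000125384, chromosome 14, 52314305 to 52328598) had 0 counts in all 6 libraries. PTGER4 varied widely within groups, with 2.07, 3.08 and 5.47 CPM in the controls and 4.43, 6.8 and 2.11 with 6-shogaol. The spread within either group was wider than the gap between their means of 3.54 and 4.45 CPM. The log2 fold change was 0.33 (SE 0.49, 95% interval -0.82 to 1.48, edgeR adjusted p = 0.768), and it was -0.11 without 6-shogaol replicate 2 and 0.79 without control replicate 3.

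HPGD (ENSG00000164120, chromosome 4, 174490175 to 174523065), the enzyme that inactivates prostaglandins, had the only negative value of the 8. The controls held 29, 25 and 30 counts and the 6-shogaol libraries 0, 14 and 19. In CPM the controls were 0.561, 0.428 and 0.5 and the treated libraries 0, 0.279 and 0.436, so that treated replicate 3 overlapped the controls. The log2 fold change was -1.07 (SE 1.02, 95% interval -3.48 to 1.33, edgeR adjusted p = 0.619) and -0.47 without 6-shogaol replicate 1, where the gene is listed at 0. In that library 31 genes were listed at 0 that had at least 10 counts in each other library, and the other libraries had between 13 and 58 such genes each.

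ALOX5 (ENSG00000012779, chromosome 10, 45374176 to 45446119) had 0 counts in all 6 libraries, and no fold change can be given. Of 8 leukocyte markers AIF1 and TYROBP were also at 0 in every library, PTPRC held between 0 and 15 counts, and CD68, which many cell types express, was the 1 marker with a mean of at least 1 FPKM. CSF1R (92 to 136 counts) and CD14 (43 to 77 counts) were also detected in every library, while ITGAM and SPI1 held between 0 and 9 counts. The summed level of the 8 markers ran from 15.9 to 17.8 CPM in controls and from 19.6 to 31.3 CPM with 6-shogaol. Of this sum CD68 was 12.7 to 14.7 CPM in controls and 15.6 to 28.2 CPM in the treated libraries. CD68 was not called (log2 fold change 0.73, edgeR adjusted p = 0.117). Nor were CD14 (0.32, edgeR adjusted p = 0.599) and CSF1R (0.17, edgeR adjusted p = 0.753). ALOX5AP, the protein that presents arachidonic acid to 5-lipoxygenase, held 28, 8 and 8 counts in controls and 17, 12 and 21 with 6-shogaol (log2 fold change 0.34, SE 0.72, edgeR adjusted p = 0.848).

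**Figure D3:**
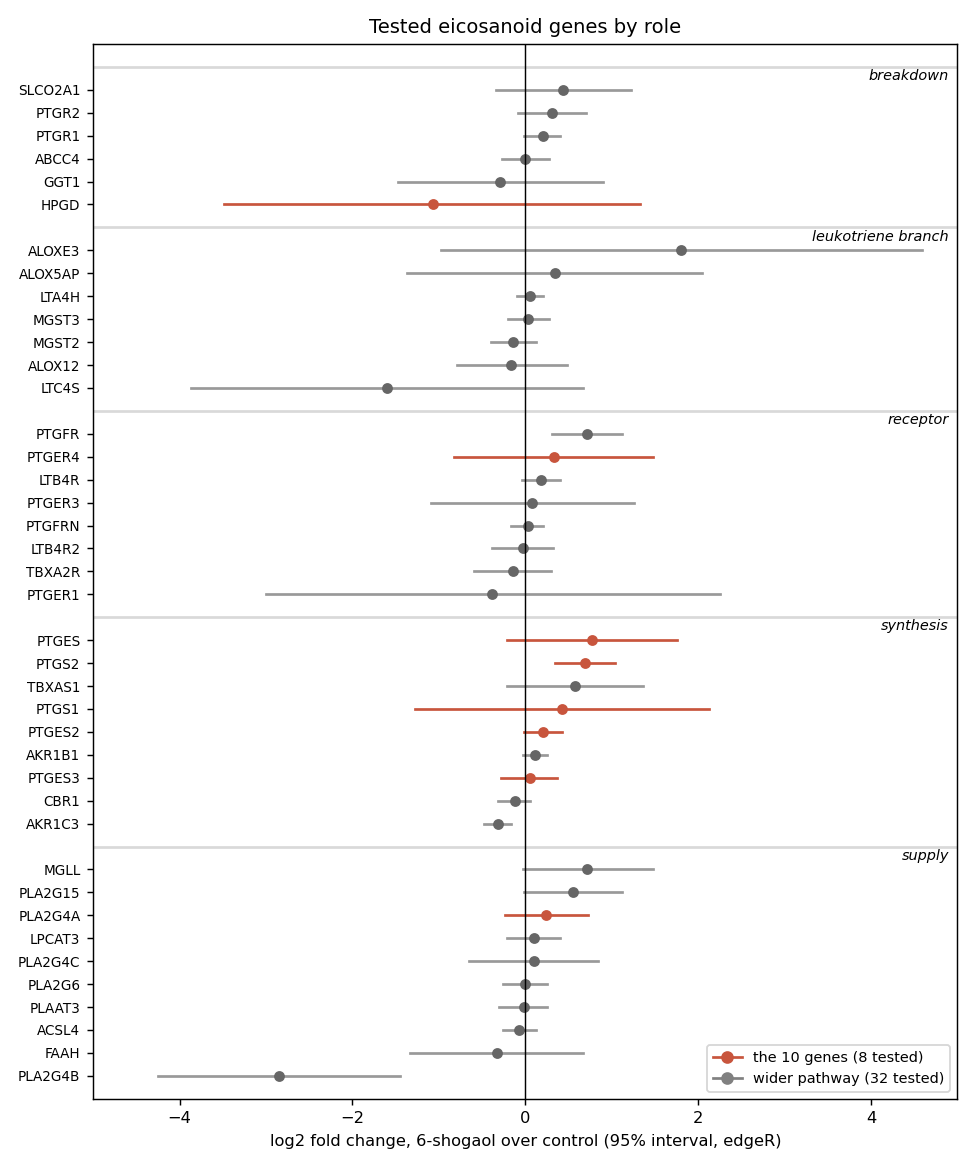
Log2 fold change of 6-shogaol over control with its 95% interval from edgeR, for the 8 tested genes of the 10 (red) and 32 tested genes of the wider pathway (grey), grouped by role. Among the red genes only the PTGS2 interval (0.34 to 1.04) excludes 0, and no gene plotted passed after adjustment over all genes.

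Beyond the 10 genes, 48 further genes of eicosanoid supply, synthesis, reception and breakdown were read from the fit. Of these 7 had no counts, 9 had too few counts to be tested, and 32 were tested. edgeR called 0 higher and 0 lower after adjustment over all genes, against 1.67% and 1.71% of all genes tested. Before adjustment 1 was higher and 2 were lower with p under 0.05, against 10.4% and 9.95% of all genes. After adjustment DESeq2 called those 3, in the same directions, beside 5.05% higher and 5.2% lower over its genes. The median log2 fold change of the 32 was 0.03. These 3 genes, PTGFR, AKR1C3 and PLA2G4B, are named because of these values.

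PTGFR, the receptor of prostaglandin F2 alpha, held 6.38, 5.13 and 4.38 CPM in controls and 7.91, 9.07 and 9.12 with 6-shogaol. The groups did not overlap, and the log2 fold change of 0.72 was close in size to that of PTGS2 (SE 0.17, 95% interval 0.31 to 1.12, edgeR adjusted p = 0.0732). AKR1C3, a reductase that makes prostaglandin F2 from other prostaglandins, held 43.8, 45.5 and 45.1 CPM in controls and 35.9, 36.6 and 35.0 with 6-shogaol. All treated libraries lay below all controls in a narrow band, a log2 difference of -0.32 (SE 0.07, adjusted p = 0.0529 in edgeR). It passed in 6 alternatives, among them limma on log2(FPKM + 1) with an FPKM filter (adjusted p = 0.0411), and has close paralogs whose reads the counting could have divided.

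PLA2G4B, a second cytosolic phospholipase A2, had the largest negative value of the tested pathway genes (log2 fold change -2.85, SE 0.59, edgeR adjusted p = 0.0526). It held 2.59, 7.56 and 8.58 CPM in controls and 1.17, 1.08 and 0.322 with 6-shogaol. However, 75.6% of its exon length is shared with other annotated genes, mainly the read-through gene JMJD7-PLA2G4B. That gene held 11.0, 6.93 and 6.4 CPM in controls and 14.2, 11.0 and 13.2 with 6-shogaol. Summed over PLA2G4B, JMJD7 and the read-through gene, the controls averaged 15.6 ± 0.752 CPM and the 6-shogaol libraries 14.6 ± 2.05 CPM (SD, n = 3, two-sided exact permutation p = 0.6). The PLA2G4B share of that sum was 39.6% ± 19.6 and 5.98% ± 3.38, without overlap (exact permutation p = 0.1, the smallest possible). How the counting assigned reads of shared exons is not given in the sources used here, so the PLA2G4B value is uncertain.

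**Figure D4:**
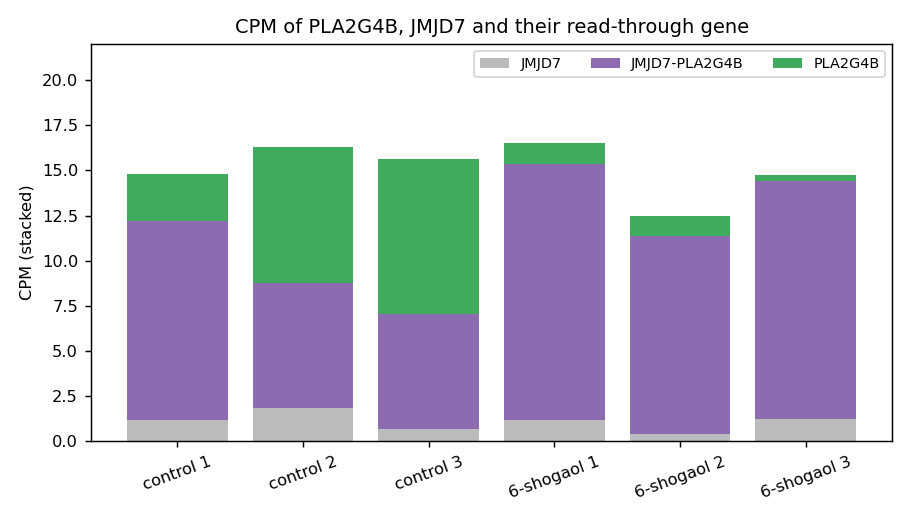
Stacked bars of TMM-scaled CPM for JMJD7 (grey), the read-through gene JMJD7-PLA2G4B (purple) and PLA2G4B (green) in each library. The whole bars lie between 12.4 and 16.5 CPM, while the green part is 2.59 to 8.58 CPM in controls and 0.322 to 1.17 CPM with 6-shogaol.

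The best expressed genes of each role are given next by their mean over the 6 libraries. AKR1B1, an aldo-keto reductase with prostaglandin F synthase activity, had the highest mean (41.4 FPKM, log2 fold change 0.11, SE 0.06), followed in the synthesis group by CBR1, a carbonyl reductase of prostaglandin E2 (19.2 FPKM, log2 fold change -0.12). In the supply group, ACSL4, which activates arachidonic acid for storage, averaged 19.8 FPKM (log2 fold change -0.07), PLAAT3 10.2 FPKM (-0.02) and LPCAT3 7.63 FPKM (0.10). LPCAT3 shares 65.6% of its exon length with the antisense gene EMG1, and the strand setting of the counting is not given, so its value is uncertain.

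Receptors and receptor-associated genes were led by PTGFRN, a membrane protein that binds the prostaglandin F2 receptor (20.7 FPKM, log2 fold change 0.03), and by the leukotriene B4 receptors LTB4R (3.7 FPKM, 0.18) and LTB4R2 (1.9 FPKM, -0.03), which share exons with each other. In the leukotriene branch LTA4H, which makes leukotriene B4, averaged 9.99 FPKM (log2 fold change 0.06), MGST3 5.62 FPKM (0.03) and MGST2 3.72 FPKM (-0.14). Among genes of breakdown and export, PTGR1 averaged 9.7 FPKM (log2 fold change 0.20, SE 0.09, edgeR adjusted p = 0.258). It reduces prostaglandins and leukotriene B4 and also other unsaturated ketones. Of the 32 tested genes of the wider pathway, 4 had every treated library above every control (PTGR1, LTB4R, AKR1B1 and PTGFR). Another 3 had every treated library below. Over all genes tested these shares were 14.0% and 13.9%. The exporter ABCC4 (2.34 FPKM, log2 fold change 0.00) and GGT1, which trims cysteinyl leukotrienes (1.04 FPKM, -0.29), had adjusted p of 0.996 and 0.81 in edgeR. GGT1 shares 6.9% of its exon length with SNRPD3, which had a mean of 6780.8 counts.

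**Figure D5:**
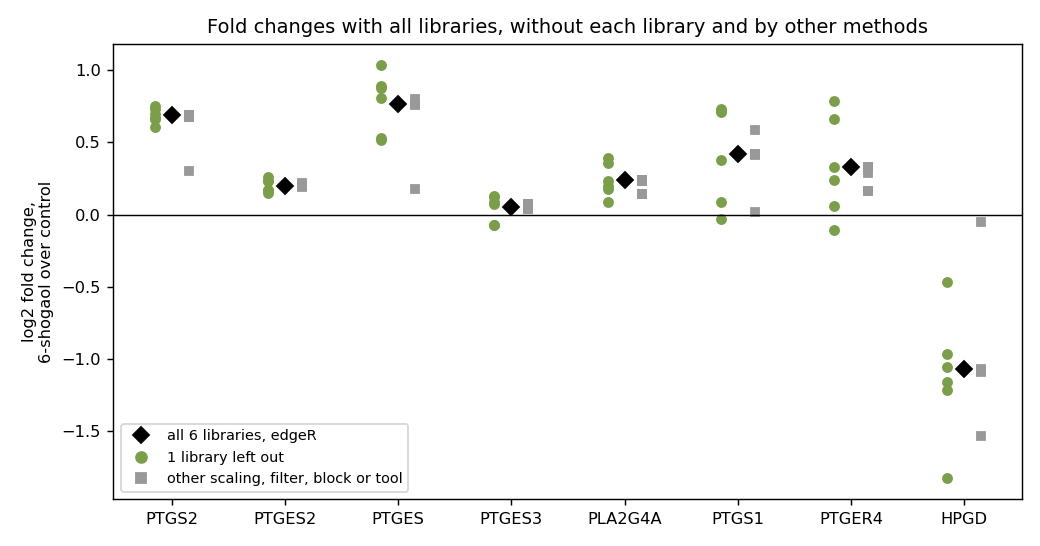
Log2 fold change of the 8 tested genes with all 6 libraries (black diamonds), with 1 library left out (green dots) and under other scalings, filters, the replicate block or other tools (grey squares). PTGS2 stays between 0.61 and 0.75 when a library is left out, while PTGS1, PTGES3 and PTGER4 cross 0. The lowest PTGS2 square (0.30) is on the log2(FPKM + 1) scale, which understates changes of low genes.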

How the data were processed

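Trizol-extracted RNA went into SMARTER mRNA-Seq libraries, per the labels' protocols. The submitters' processing notes name GRCm38 and mm10, which are mouse builds, but all 60612 identifiers are human Ensembl genes and 0 are mouse ones. The aligner, counter and strand setting are not given in the sources used here. The authors deposited raw counts per gene, not normalized, and FPKM values for the same genes, in which every count of 0 is listed as 0.0001. Groups and replicate numbers came from the sample titles.

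The tests on counts used edgeR 4.0.16 in R 4.3.3: filterByExpr (19279 genes left), TMM scaling, glmQLFit and glmQLFTest over all 6 libraries. Genes were called at a Benjamini-Hochberg adjusted p under 0.05. SE was taken as |log2 fold change| / sqrt(F). The common biological coefficient of variation was 25.3%. Levels of different genes were compared in FPKM, and exon overlap came from GENCODE 29. The scripts were tested on simulated counts.

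The 10 genes and the lists were chosen with earlier results of these data known. The text names all 10 genes, wider pathway genes past the threshold, the 3 with the highest mean FPKM per role, HSP90AA1, HSP90AB1 and HSP90 partners past the threshold. Other names were chosen after their values were seen. The alternatives tried were DESeq2 1.42.0, scaling by RLE or by upper quartile, no filter or 1 CPM in 3 libraries, leaving out each library, and a block for replicate number. Limma 3.58.1 was run on log2(FPKM + 1) and log2(FPKM + 0.1), keeping genes with 1 FPKM or more in 3 libraries, and without that filter for the first. Counts divided by 4 and rounded were added after the data were seen.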

Additional observations from a re-analysis of the deposited data

How the results depend on the processing

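Of 253 alternative values 218 kept their direction and side of the threshold or, for counts, medians and shares, stayed within the margin set for them. That margin was 1 SD for medians and shares. Genes far from the threshold could hardly change side, so the total of 218 does not measure robustness. All 16 alternatives for HSP90 genes called higher gave 0, for example. Whole-table counts stayed within their margin in 7 of 16 alternatives for higher genes and 6 of 16 for lower ones. The difference in the PTGS2 share of the cyclooxygenases was 0.849 points. It took the other sign without control replicate 2 (-0.61), control replicate 3 (-0.295) or 6-shogaol replicate 3 (-0.554). The counts of genes called over the whole table moved the most, from 322 higher and 329 lower to 769 and 792 in DESeq2, 183 and 195 with no filter, and 56 and 38 in limma on log2(FPKM + 1) with no filter. Without 6-shogaol replicate 1 they rose to 480 higher and 532 lower. With any other library left out they ran from 44 to 81 higher and from 54 to 96 lower. All these fits have fewer samples. With the replicate number as a block edgeR called 3 higher and 0 lower. Deviations of same-numbered libraries from their group means correlated at -0.0304, 0.0586 and -0.0365 across 19279 genes, and 0 of the 3 pairs passed 0.1. No shared deviation by replicate number was seen, but such values cannot tell whether the libraries were paired by culture or day.

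PTGS2 passed in DESeq2 (log2 fold change 0.68) and in counts divided by 4 (0.68). With 1 library left out PTGS1 ran from -0.03 to 0.73, PTGES3 from -0.07 to 0.13 and PTGER4 from -0.11 to 0.79. For the wider pathway, DESeq2 called 1 gene higher and 2 lower. With 1 CPM in 3 libraries and with counts divided by 4 there were 2 lower, and with upper-quartile scaling and in both filtered limma fits there was 1 lower. Its median ran from -0.03 to 0.06 with 1 library left out, and was -0.03 without 6-shogaol replicate 1. Of HSP90 and its partners DESeq2 called 2 lower, and between 0 and 1 were called lower with 1 library left out. The cause of these differences was not tested. PTGS1, PTGES and HPGD were not tested with the 1 CPM filter or with counts divided by 4, and PTGER2 and ALOX5, at 0 counts, were not tested by any count model.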

Other observations

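PTGES3 has processed pseudogenes whose reads the counting may have taken from it or given to it. The best covered, PTGES3P1 on chromosome 1 (89104285 to 89104767), held 10.5, 11.6 and 9.42 CPM in controls and 7.17, 7.14 and 7.74 with 6-shogaol, with every treated library below every control (log2 fold change -0.51, SE 0.13, edgeR adjusted p = 0.0776). PTGES3 together with its 5 pseudogenes stood at 261 ± 37.9 CPM in controls and 266 ± 35.8 CPM with 6-shogaol (SD, n = 3). These genes were chosen after their values were seen. PACERR, an antisense RNA at the PTGS2 promoter, held 0, 12 and 8 counts in controls and 0, 4 and 0 with 6-shogaol, too few to be tested.

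Of the 8 glial and glioma markers, all tested, 3 were called lower with 6-shogaol and 0 higher, beside 1.71% and 1.67% of all genes tested. GFAP, the intermediate filament of astrocytes, averaged 27.3 ± 5.73 CPM in controls and 8.88 ± 0.424 CPM with 6-shogaol (SD, n = 3; log2 difference -1.62, adjusted p = 0.00655 in edgeR). FABP7, a fatty acid binding protein of radial glia that can carry arachidonic acid, averaged 4.84 ± 1.42 and 1.81 ± 0.296 CPM (log2 difference -1.41, adjusted p = 0.0385 in edgeR). NES, the nestin gene, had a log2 difference of -0.42 (adjusted p = 0.0484 in edgeR). Of the 5 that were not called, VIM had a log2 difference of 0.05 and S100B of -0.64, and their groups overlapped. CD44 (0.25, adjusted p = 0.12 in edgeR) had every treated library above every control. SOX2 (-0.33, adjusted p = 0.0646 in edgeR) and SOX9 (-0.24, adjusted p = 0.114 in edgeR) had every treated library below every control. Over all genes tested 14.0% separated upward and 13.9% downward. Among tested markers of other cell types, only CDH5 (endothelial, log2 difference -1.77, adjusted p = 0.0192 in edgeR) and COL1A1 (fibroblast, -0.67, adjusted p = 0.0387) were called lower. None was called higher, beside 1.71% lower and 1.67% higher over all genes tested. CDH5 was low, with means of 2.35 CPM in controls and 0.691 CPM with 6-shogaol. The other tested endothelial markers (VWF -1.55, KDR 0.01) and fibroblast markers (COL1A2 -0.17, COL3A1 -0.43, PDGFRB 0.12) were not called.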
